A study of Mus musculus with 2 samples.

Results

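Forkhead genes encode the Fox transcription factors, and the 36 Fox genes described here were read by 51 probes of a mouse expression array that carried 27670 gene names. Membership followed the names printed on the array: every gene probe named Fox, a letter and a digit, with 2 further Fox genes left out of the set. RNA came from primary glia of C57BL/6J mice, untreated and of unstated age, and each of 2 Agilent arrays held oligodendrocyte RNA in one dye and astrocyte RNA in the other. On the array of replicate 1 the astrocyte RNA carried Cy3 and the oligodendrocyte RNA Cy5, and replicate 4 had the dyes exchanged. Other arrays of the study were not analysed here. The cell types came from the same kind of mixed culture: oligodendrocytes were shaken off, the rest was kept longer in serum, microglia were shaken off next, and the layer left behind was harvested as astrocytes. The study asked which mRNAs are enriched in oligodendrocytes.

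Fox proteins share a winged-helix DNA-binding domain, the forkhead box, and are sorted into lettered subfamilies by the sequence of that domain. Several act as pioneer factors that bind closed chromatin. Foxd3 marks the neural crest, and Foxc1, Foxc2, Foxf2 and Foxd1 are known from mesenchyme, including that around the brain and its vessels. FoxO proteins are held in the cytoplasm by insulin and Akt signalling, Foxm1 drives genes of mitosis, and Foxp proteins repress transcription in neurons, among other cells.

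All 51 probes were 60 bases long, and those on which the results turn most are identified here by the first 30 of these, 5′ to 3′ as the array files list them, in lower case since no base is singled out. The Foxd1 probes are shown because they gave nearly the same ratio, and the Foxn2 probes because the first listed was called and the others stood near 0. The Foxk2 probes are its brightest and its called one.
Foxd1, chr13:95426276-95426335: tctccaagaaatgcctctacttgttcacac
Foxd1, chr13:95426359-95426418: gaaataagtcgaaatttaccatttcctatt
Foxn2, chr17:86795483-86795542: atgtaaagggttcatactagatggtcagtt
Foxn2, chr17:86783217-86783276: ccatccgtagagccttgtaatttttatcct
Foxn2, chr17:86769168-86779636: taaatgttttcagaaagtggaaagaagtca
Foxk2, chr11:121418585-121418644: acctgtgtcctgggtacggtgcattccaga
Foxk2, chr11:121417227-121417286: agaatgacgtcccacactaatcctgactta
Coordinates are those of the files, in the mm7 build, and these probes lie on the plus strand. The last Foxn2 probe is listed over 10.5 kb, more than its own length, so its bases cannot be contiguous in mm7. The part of the gene that each probe reads, coding or untranslated, was not analysed here.

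Probe sequences were compared with those of the other genes on the array. The longest run of bases that a member shared with a probe of another gene name was 17 bases (Foxk2), and it was the only member at 16 or more. All 33 member probes whose gene had a RefSeq promoter entry (GRCm38.p6) lay on the strand listed there. The words AATAAA or ATTAAA, typical of polyadenylation signals, stood in 3 member probes (5.88%), those of Foxm1 and Foxo6 and 1 of Foxk2, against 7.49% of the 41174 gene probes of the array. Paralogs can still resemble one another: the probes of Foxp2 and Foxp4 that are listed over more than their own length in mm7 were identical at 44 of 59 aligned bases. In the 30-base stretches below, capitals mark the 23 identical bases.
Foxp2, chr6:15355593-15356764: AGgtCaCaAAAGATaACAGGaAGTCCaACT
Foxp4, chr17:46007273-46008770: AGacCgCcAAAGATgACAGGgAGTCCcACT
The Foxp4 probe, on the minus strand, was well above background in no channel. The Foxp2 probe was well above background in oligodendrocytes on both arrays and in astrocytes on neither.

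Of the 36 Fox genes, 30 could be tested, and 10 of these differed between the cell types (33.3%), against 41.2% of all 21896 genes called by limma at a Benjamini-Hochberg adjusted p under 0.05. The share of Fox genes called was thus not above that of all genes. 7 were higher in oligodendrocytes (23.3%, against 18.5% of all genes) and 3 in astrocytes (10%, against 22.6%). Ratios below are log2 oligodendrocyte over astrocyte after loess, which sets the typical gene near 0, and each is a mean with its SD over 2 arrays. There were only these arrays, with no statement that they came from separate cultures, so the spread between them may be technical. The p-values rest mostly on a variance pooled over all genes tested (8.43 prior degrees of freedom against 1 from the gene itself). They thus say little about how well the arrays agree for a gene. Foxp4 (SD 0.0012) and Foxk2 (SD 0.53) had standard errors of 0.119 and 0.170. In bulk RNA, fewer cells of a type and less RNA per cell cannot be told apart.

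**Figure D1:**
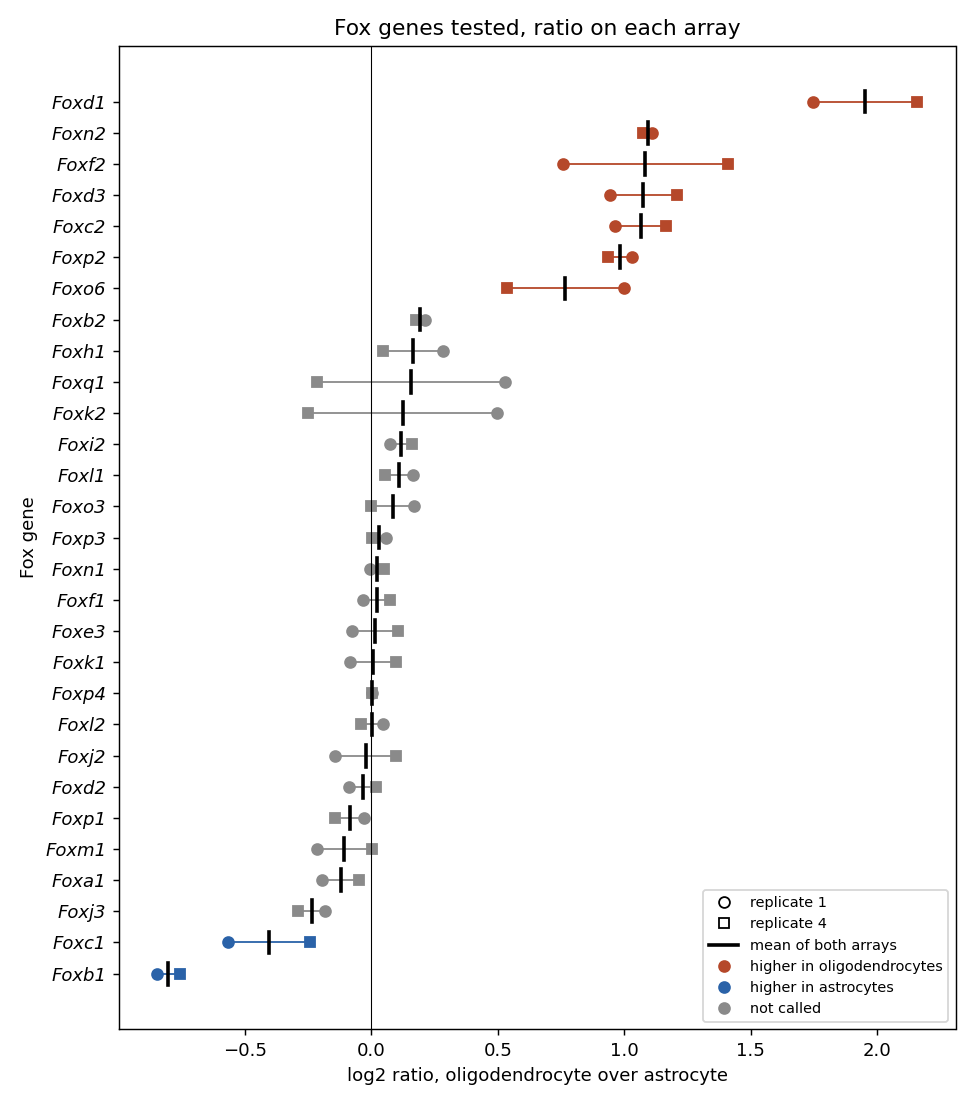
Log2 ratio of oligodendrocyte over astrocyte signal (x axis) for 29 Fox genes tested (y axis), with replicate 1 as circles, replicate 4 as squares, their mean as a black bar and the limma call as colour. The called genes shown run from Foxd1 at 1.95 to Foxb1 at -0.80, and the 20 uncalled genes have means between -0.23 and 0.19.

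Most Fox genes lay near the typical gene. The median size of the ratio was 0.12 over the 30 Fox genes and 0.26 over all genes tested, and the middle of the Fox distribution ran from -0.031 to 0.19 (quartiles). The same sign on both arrays was seen for 20 Fox genes (66.7%), against 76.3% of all genes. The Fox probes tested were also dimmer, with a median log2 signal of 7.47 against 8.87 over all genes. The offset of the background correction pulls ratios of dim probes toward 0, and its part in these differences was not tested. Under the spike-in scaling, in which the spike-in control probes set the zero, every ratio moved toward astrocytes by 0.71; then limma called 5 Fox genes toward oligodendrocytes and 23 toward astrocytes, and 14 of the uncalled genes changed direction. Over all genes the share of calls toward oligodendrocytes was 45.1% with loess and 6.65% with the spike-in controls. None of the 10 called Fox genes changed direction under any of the 12 scalings, filters and priors that were refitted. Among these 12, Feature Extraction's log ratio and the authors' value table held the same values.

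Foxd1, a factor of kidney stroma and of the developing retina and hypothalamus, had the largest ratio of any Fox gene tested. Its brighter probe gave log2 signals of 9.60 and 9.83 in oligodendrocytes (replicates 1 and 4) and of 7.85 and 7.67 in astrocytes, so the cell types did not overlap. The log2 ratio was 1.75 on the array of replicate 1 and 2.16 on that of replicate 4, a mean of 1.95 ± 0.29 (SD, n = 2), or 3.87-fold, with a limma adjusted p of 2.16e-06. The second Foxd1 probe, 23 bases away in mm7, gave 1.87 and 2.11. These probes read adjacent stretches of 1 transcript and are not replicates.

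Foxd3, which keeps neural crest and stem cells undifferentiated, gave signals of 8.08 and 8.11 in oligodendrocytes and of 7.14 and 6.91 in astrocytes. Its ratios were 0.94 and 1.21, a mean of 1.07 ± 0.19 (limma adjusted p 7.97e-05). The remaining tested member of the subfamily, Foxd2, stood at -0.034, and the probe of Foxd4 was well above background in no channel. Foxd1 and Foxd3 were thus the called members among 4 Foxd genes on the array.

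The mesenchymal factors of the Foxc and Foxf subfamilies did not move as pairs. Foxc2, known from lymphatic vessels and other mesoderm, gave 8.12 on both arrays in oligodendrocytes and 7.16 and 6.95 in astrocytes, with ratios of 0.96 and 1.17 (mean 1.06 ± 0.14, limma adjusted p 7.14e-05). Foxc1, its close paralog, needed for the meninges and for brain pericytes, read 9.58 and 9.71 in oligodendrocytes and 10.14 and 9.95 in astrocytes. Its ratios of -0.56 and -0.24 gave a mean of -0.40 ± 0.23, with a limma adjusted p of 0.0322, the weakest of the 10 calls. The call of Foxc1 was lost with Feature Extraction's own log ratio, which the authors' value table repeats, at -0.39, and with median centring, at -0.50.

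Foxf2, which is expressed in brain pericytes, was higher in oligodendrocytes on both arrays but by unequal amounts. Signals were 8.86 and 8.26 in oligodendrocytes and 8.10 and 6.85 in astrocytes, and the ratios were 0.76 and 1.41 (mean 1.08 ± 0.46, limma adjusted p 0.000363). The cell types did not overlap, although the lower oligodendrocyte signal stood only just above the higher astrocyte one. Foxf1, of lung and gut mesenchyme, stood at 0.023 ± 0.075.

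In mm7 these genes lie in a pair of clusters with relatives from other subfamilies, and neighbours differed within each. On chromosome 13 the probes of Foxq1, Foxf2 and Foxc1 follow one another with gaps of 71.2 and 178 kb. Their ratios were 0.16, 1.08 and -0.40, so of 3 neighbours 1 was uncalled, 1 higher in oligodendrocytes and 1 higher in astrocytes. On chromosome 8 the probes of Foxf1, Foxc2 and Foxl1 lie 32 and 9.84 kb apart, with ratios of 0.023, 1.06 and 0.11, and only Foxc2 was called. Foxd2 and Foxe3, 18.4 kb apart on chromosome 4, were both uncalled.

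Foxb1, a factor of the hypothalamus, thalamus and spinal cord, was higher in astrocytes. It read 6.84 and 7.12 in oligodendrocytes and 7.69 and 7.88 in astrocytes, with ratios of -0.85 and -0.76 (mean -0.80 ± 0.064, limma adjusted p 0.000414). The call of Foxb1 was lost with median centring, at a ratio of -0.80. Its relative Foxb2 stood at 0.19 ± 0.025 and was not called.

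**Figure D2:**
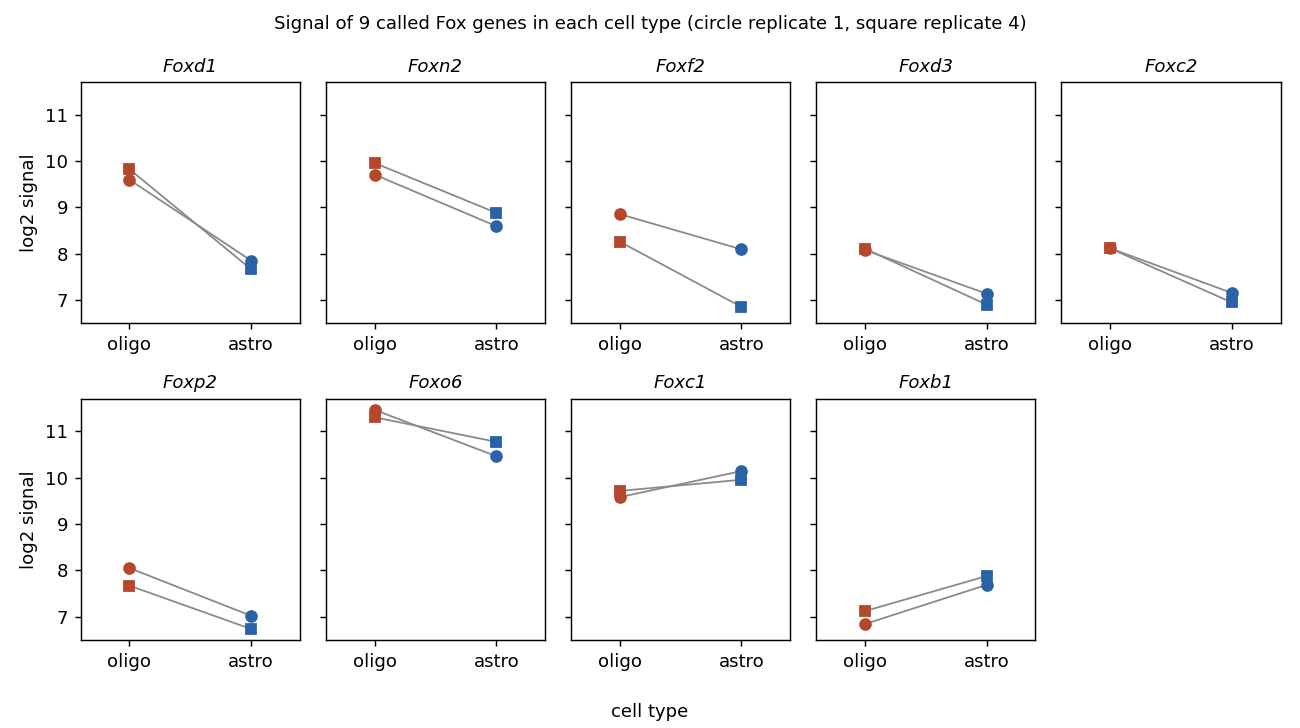
Log2 signal of 9 called Fox genes (y axis, 1 panel a gene) in oligodendrocytes and astrocytes (x axis), with replicate 1 as circles and replicate 4 as squares, and a line joining the cell types of 1 array. Signals compare cell types within a panel and not genes between panels; the lines of Foxb1 rise from between 6.84 and 7.12 to between 7.69 and 7.88, and those of Foxd1 fall from between 9.60 and 9.83 to between 7.67 and 7.85.

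The Foxn2 call rested on 1 of 3 probes. Foxn2 belongs to a subfamily of forkhead proteins that includes the thymus regulator Foxn1. Its brightest probe read 9.71 and 9.96 in oligodendrocytes and 8.60 and 8.88 in astrocytes, with ratios of 1.11 and 1.08 (mean 1.09 ± 0.025, 2.13-fold, limma adjusted p 4.68e-05). The probe 12.2 kb upstream of it in mm7 gave 0.12 and 0.045, with signals between 6.37 and 6.71 and 1 of 4 channels not well above background. The third, which spans 10.5 kb, was well above background in 1 of 4 channels and did not enter. The gap of 1.01 between the entering Foxn2 probes was the largest of the 7 Fox genes with several entering probes. The call was lost with median centring, although the ratio there was 1.01. Foxn1 stood at 0.023, and Foxn4, a factor of retinal and spinal interneurons, was well above background in no channel.

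Among Foxp genes only Foxp2, known for its role in speech and in striatal and Purkinje neurons, was called. Its brighter probe read 8.05 and 7.67 in oligodendrocytes and 7.02 and 6.74 in astrocytes, with ratios of 1.03 and 0.94 (mean 0.98 ± 0.067, limma adjusted p 0.000103). Its other probe, printed above beside that of Foxp4, gave 0.29 and 0.53, a mean of 0.41 ± 0.17 (adjusted p 0.0222 in limma's fit over probes). That probe entered the test only because it was well above background in oligodendrocytes, so neither its p-value nor its fold is separate support. With the astrocyte signal bounded from below, the mean over both arrays was 1.26-fold higher in oligodendrocytes, and single arrays can lie below that. For this bound the astrocyte signal, measured at 6.18 and 5.93 against 6.46 on both arrays in oligodendrocytes, was raised where needed to the lowest signal well above background on that array. Foxp1, a partner of Foxp2 in heterodimers, stood at -0.085 ± 0.081 on its brightest probe, with its other probes at -0.011 and -0.17. Foxp4 was at 0.0032, and Foxp3, the factor of regulatory T cells, at 0.032 with 1 of 4 channels not well above background. Foxp2 lost its call with median centring, at a ratio of 1.06, and with the spike-in scaling, at 0.28.

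Of the FoxO genes in the set, Foxo6 was called and Foxo3 was not. Foxo6, the member of the subfamily known mainly from brain, read 11.46 and 11.30 in oligodendrocytes and 10.46 and 10.77 in astrocytes. Its ratios of 0.999 and 0.54 gave 0.77 ± 0.33, 1.70-fold, with a limma adjusted p of 0.00155. Foxo3, a factor of stress resistance and quiescence, read 7.06 and 6.94 in oligodendrocytes and 6.89 and 6.93 in astrocytes on its brighter probe, nearly level. Its second probe, 5.14 kb away, gave -0.37 and -0.24 (mean -0.30, adjusted p 0.0649 in the fit over probes). Foxo6 was also without a call under median centring, at 0.65, and under the spike-in scaling, at 0.060.

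Foxk2 showed the opposite pattern to Foxn2: its brightest probe was not called and the next was. Foxk2 and Foxk1 are widely expressed repressors of autophagy genes. The brightest Foxk2 probe read 10.79 and 10.52 in oligodendrocytes and 10.29 and 10.76 in astrocytes, so the cell types overlapped. Its ratios were 0.50 and -0.25 (mean 0.13 ± 0.53). The next probe, 1.30 kb away, gave 0.52 and 0.49 (mean 0.50 ± 0.018, adjusted p 0.00556 in the fit over probes). The other Foxk2 probes stood at 0.018 and -0.066, and the 3 probes of Foxk1 between -0.0057 and 0.0082. By probe, 13 of 41 entering Fox probes were called (31.7%), against 40.2% of 32565 probes, 10 toward oligodendrocytes and 3 toward astrocytes. With probes required to be well above background in both cell types, 12 Fox probes were called.

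**Figure D3:**
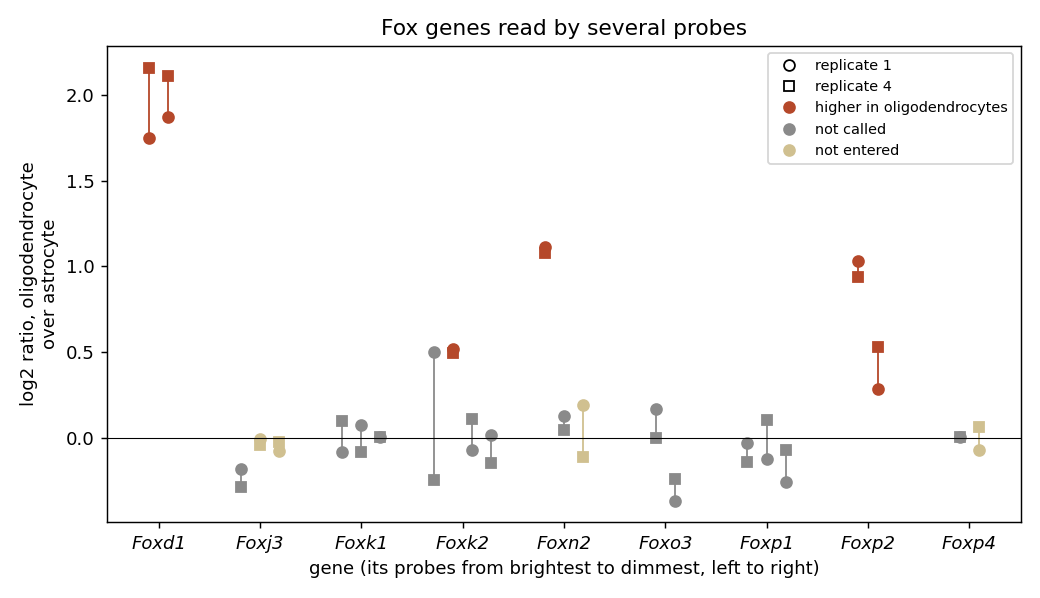
Log2 ratio of oligodendrocyte over astrocyte signal (y axis) for each probe of the 9 Fox genes with several probes (x axis, brightest probe on the left), with replicate 1 as circles and replicate 4 as squares. The Foxd1 probes lie together near 2, while 1 Foxn2 probe stands at 1.09 and the others near 0.

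A few genes with bright signals were not called. Foxh1, a partner of Smad proteins in early embryonic Nodal signalling, read 12.67 and 12.52 in oligodendrocytes and 12.38 and 12.47 in astrocytes (ratio 0.17 ± 0.17, limma adjusted p 0.352). Foxh1 and Kifc2 overlap in RefSeq, and how far Kifc2 transcripts reach the Foxh1 probe was not tested. Foxj3, a regulator of muscle and germ cell genes, read 11.22 and 11.13 in oligodendrocytes and 11.40 and 11.42 in astrocytes (ratio -0.23 ± 0.077, limma adjusted p 0.159). The astrocyte signals of Foxj3 were the higher on both arrays, and the difference did not pass the test. Foxq1 moved in opposite directions on the arrays, at 0.53 and -0.22. Foxj2, which is widely expressed, stood at -0.021 ± 0.17.

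All genes tested were sorted by probe brightness into 4 bins of equal size. The 12 Fox genes in the dimmest bin had no call by limma, adjusted or at an unadjusted p under 0.05, against 16.8% of all genes called in that bin. In the second bin 6 of 7 Fox genes were called, against 43% of all genes there. In the third and the brightest bins the counts were 2 of 7 and 2 of 4, against 54.4% and 50.5%. The dimmest bin held factors known from liver, lens and ovary, namely Foxa1 (-0.12), Foxe3 (0.016) and Foxl2 (0.0030). It also held Foxo3 (0.085) and Foxp4 (0.0032), among others. The background correction adds an offset of 50 to each channel, which pulls ratios of dim probes toward 0. With the offset lowered to 10 and all else kept, Foxa1 stood at -0.23 and Foxi2, a factor of ectoderm, at 0.19, and neither was called. With Feature Extraction's log ratio, which differs in its background and dye correction too, they stood at -0.69 and 0.49, and limma called both.

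**Figure D4:**
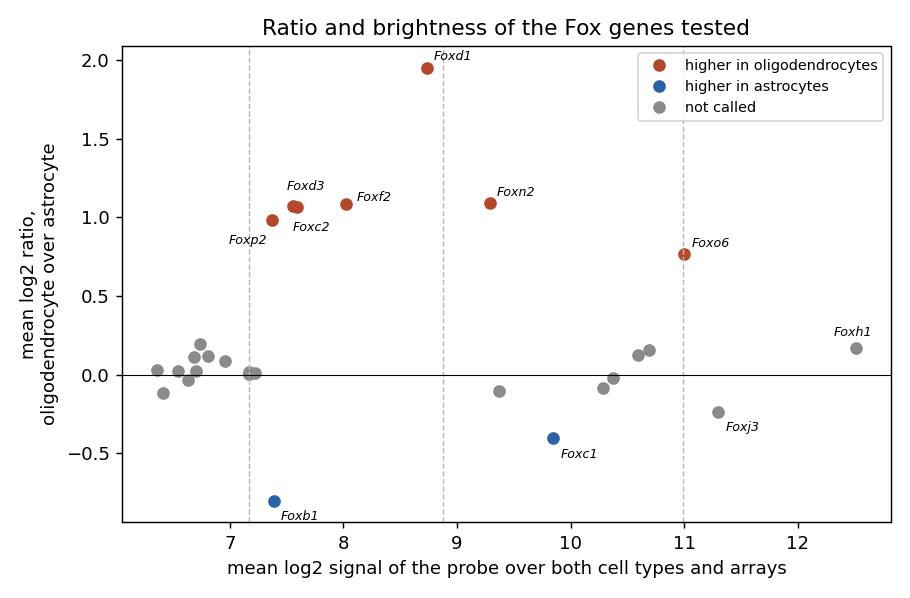
Mean log2 ratio of oligodendrocyte over astrocyte (y axis) against the mean log2 signal of the probe (x axis) for 29 Fox genes tested, coloured by limma call, with dashed lines at the limits of the 4 brightness bins. No Fox gene left of the first dashed line at 7.17 is called.

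The 6 Fox genes that could not be tested were Foxa2, Foxa3, Foxd4, Foxe1, Foxi1 and Foxn4. Foxd4, Foxe1, Foxi1 and Foxn4 were well above background in no channel, and Foxa3 in 2 of 4. Foxa2, a floor plate and liver factor, was left out because some of its 10 spots carried outlier marks. These spots gave a median log2 ratio of 0.090 (SD 0.11 between spots) on replicate 1 and 0.047 (SD 0.067) on replicate 4. Some forkhead genes carry older names in the array files and so fell outside the set. Foxn3, listed as Ches1, stood at 1.73 ± 0.048 and was called, Foxs1, listed as Fkhl18, at 0.42 ± 0.43 (limma adjusted p 0.0556), and Foxo4, listed as Mllt7, at 0.046.

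Promoters of 300 bases were given for 23 of the 36 Fox genes, 28 promoters in all, from RefSeq (GRCm38.p6). The forkhead core word TGTTTAC, searched on both strands, stood in 1 of them (3.57%), the promoter of Foxa1, against 3.65% of 32851 promoters of the same length. It was not found in this window for Foxc1, Foxd1, Foxd3 or Foxf2, the called genes with an entry. The observed over expected ratio of CpG had a median of 0.69 over the Fox promoters and 0.38 over all promoters.

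Genes around the Fox proteins were described from 5 lists of textbook members. Among 33 regulators of FoxO proteins, 7 were called toward oligodendrocytes and 8 toward astrocytes (median ratio 0.071, against -0.0040 over all genes). This was 45.5% of the list, near the 41.2% called over all genes. Toward oligodendrocytes the largest ratios were those of Sirt2, a deacetylase abundant in myelin, at 1.92 ± 0.69, of the 14-3-3 protein Ywhaq, which retains FoxO in the cytoplasm, at 1.16 ± 0.050, and of the PI3K subunit Pik3r1 at 1.04 ± 0.10. Toward astrocytes they were Irs1, the insulin receptor substrate, at -0.73 ± 0.28, and the acetyltransferase Kat2b at -0.70 ± 0.22.

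Of 32 FoxO target genes tested, limma called 9 toward oligodendrocytes and 10 toward astrocytes, and the median was 0.042. This was 59.4% called, against 41.2% of all genes. The selenium carrier Selenop stood at 2.02 ± 0.33, the ubiquitin ligase Fbxo32 at 1.76 ± 0.15 and Rictor, a subunit of the mTORC2 kinase, at 1.47 ± 0.042. In the other direction Pdk4, which blocks entry of pyruvate into the citric acid cycle, read -3.72 and -3.61 on the arrays (mean -3.66 ± 0.079). Pik3ip1, an inhibitor of PI3K, stood at -2.01 ± 0.24 and Pink1, a kinase of mitochondrial quality control, at -1.36 ± 0.021.

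Foxm1, the activator of mitotic genes, read 9.31 and 9.32 in oligodendrocytes and 9.52 and 9.32 in astrocytes, a ratio of -0.11 ± 0.16 that was not called. Of 33 FoxM1 target genes, 29 were not called, 1 was called toward oligodendrocytes and 3 toward astrocytes, and the median was 0.028. This was 12.1% called, against 41.2% of all genes. The called ones were Birc5, survivin, at 0.33 ± 0.053, and toward astrocytes the mitotic kinase Nek2 at -0.66 ± 0.011, the cyclin Ccnb2 at -0.51 ± 0.085 and the Cdk-binding protein Cks2 at -0.41 ± 0.096. With the mean of a gene's probes, 9 of this list were called, and with median centring 0 (also 0 at an unadjusted p under 0.05 in limma), so that the count moved with the setting.

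Of 31 cofactors that bind Fox proteins, 6 were higher in oligodendrocytes and 11 in astrocytes (median -0.14). The shares were 19.4% and 35.5%, against 18.5% and 22.6% of all genes. The Groucho corepressors, which bind several Fox proteins, were divided. Tle2 stood at 1.70 ± 0.21 and Tle6 at 1.60 ± 0.18, whereas Tle3 was at -0.85 ± 0.092, and Tle1 and Tle4 were also higher in astrocytes, at -0.37 and -0.46. The Wnt effector Tcf7l2 stood at 0.71 ± 0.062. Lin52, a subunit of the complex that recruits Foxm1, read -1.57 and -1.25 (mean -1.41 ± 0.23), and the corepressor Ctbp2 stood at -1.02 ± 0.28.

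Regional transcription factors, listed because some Fox genes mark brain regions, were tested in 17 cases, with 2 called toward oligodendrocytes and 9 toward astrocytes (median -0.34). The shares were 11.8% and 52.9%, against 18.5% and 22.6% of all genes. Pax6, Lhx2 and Emx2, factors of the dorsal telencephalon, stood at -3.17 ± 0.23, -2.74 ± 0.18 and -1.43 ± 0.061. Emx1, also dorsal, was higher in oligodendrocytes at 1.06 ± 0.29, and Dlx5, of the ventral telencephalon, at 0.60 ± 0.054. Gsx2 (-0.58) and Dlx2 (-0.34) were called toward astrocytes, and Dlx1 (0.0056) was not called. Under the spike-in scaling, called genes of all 5 lists with a ratio between 0 and 0.71, such as Birc5 and Dlx5, turn toward astrocytes.

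**Figure D5:**
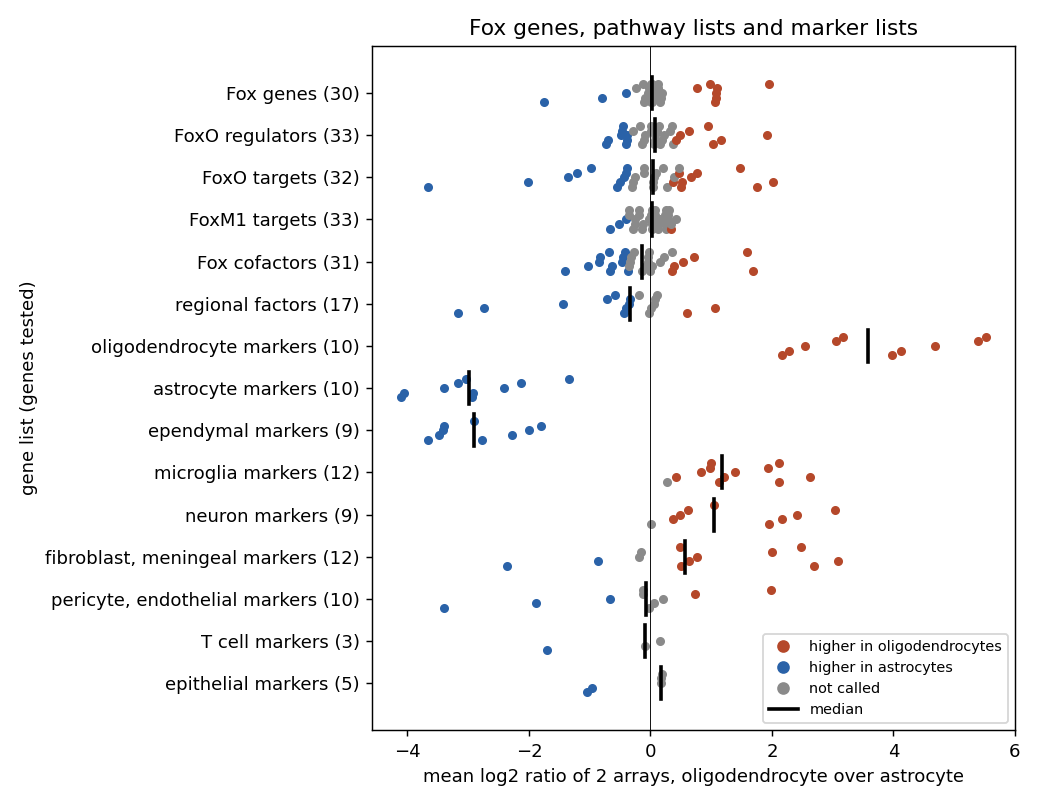
Mean log2 ratio of oligodendrocyte over astrocyte (x axis) of each tested gene in the Fox set, 5 lists of related genes and 9 marker lists (y axis, number tested in brackets), coloured by limma call, with the median as a black bar. The Fox genes cluster near 0 with a median of 0.028, and ependymal markers lie with astrocyte markers near -2.9.

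The cell types matched their labels by their markers: 10 of 10 oligodendrocyte markers were higher in the oligodendrocyte RNA (2.16 to 5.53) and 10 of 10 astrocyte markers in the astrocyte RNA (-4.10 to -1.34). Markers of other cells moved with the same contrast. Of 12 microglial markers 11 were higher on the oligodendrocyte side, with a log2 of the summed signal of 17.38 and 17.69 there and 15.68 and 15.76 in astrocytes. Of 9 neuronal markers 8 were, at 14.37 and 14.61 against 12.17 and 12.14. Of 12 fibroblast and meningeal markers 8 were called toward oligodendrocytes and 2 toward astrocytes, with summed signals of 16.25 and 16.39 against 14.64 and 14.48. Ratios on that list ran from -2.36 (Ogn) to 3.09 (Ptgds), with a median of 0.57 and 2 genes not called. The mesenchymal Fox genes Foxd1, Foxc2 and Foxf2 were called in the direction of most of that list, and Foxc1 in the other. Foxd3, Foxn2, Foxp2 and Foxo6 were called toward oligodendrocytes too, as were 18.5% of all genes.

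Ependymal markers were higher in astrocytes in 9 of 9 cases (median -2.90), with summed signals of 16.52 and 16.39 there and 13.37 and 12.94 in oligodendrocytes. The 3 Fox genes called toward astrocytes lay on the same side, as did 22.6% of all genes. Pericyte and endothelial markers were split, with 2 of 10 higher in oligodendrocytes, Cspg4 (1.98) and Cdh5 (0.74). In astrocytes 3 were higher, Slco1a4 (-3.39), Kcnj8 (-1.88) and Rgs5 (-0.67). Summed signals of the pericyte and endothelial markers lay between 12.78 and 13.26 in the 4 channels. Of 8 T cell markers 3 could be tested and 1, Lck, was higher in astrocytes. Of 5 epithelial markers tested 2 were higher in astrocytes, Krt18 and Krt8. The part of these other cells in the ratios of the Fox genes was not tested.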

How the data were processed

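RNA of oligodendrocytes and astrocytes competed on each array. Spot intensity values, as deposited, came from Agilent Feature Extraction 9.5.3.1 per the file headers, with no normalization by the authors of the signal and background columns used. Feature Extraction's log10 ratio (Cy5 over Cy3, corrected for background and dye, per the file headers) was an alternative, as was the authors' deposited value table, which differed from it by at most 0. Of 43379 gene spots, 76.6% to 83.9% were well above background in a channel and 0 were saturated. Slide and scan are the same for both arrays, whose number limits the precision.

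In limma 3.58.1 (R 4.3.3), background was corrected by normexp (offset 50) and ratios by loess within arrays (control spots at weight 0). Ratios were turned to oligodendrocyte over astrocyte, and spots of a probe were averaged. Probes entered when, on both arrays, at least 1 cell type was well above background and no spot carried an outlier mark. Each gene was read by its brightest entering probe, so brightness is a property of the probe and no measure of level between genes. Signals per cell type were scaled by Aquantile. Ratios were tested against 0 by lmFit and eBayes (1 residual degree of freedom, prior 8.43) with Benjamini-Hochberg adjustment over all genes, or over all probes in a parallel fit; the code was tested on simulated data. RefSeq names (GRCm38.p6) matched 39 of 51 member probes by accession and the others by name.

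The members and lists were chosen with earlier results of these data known. Named with array values by rule were called Fox genes with a mean ratio of at least 1 in size, the 3 brightest Fox genes in each cell type, and Fox genes whose probes differed by at least 1. Each list of related genes gave its 3 largest called ratios per direction. Some items that the rule names are counted but not reported here. Other array values, and Tle1, Tle4, Gsx2, Dlx1, Dlx2, Cspg4, Cdh5, Slco1a4, Kcnj8, Rgs5, Lck, Krt18 and Krt8, were picked with their values in view. Alternatives changed the background correction, ratio, centring, filter, probe summary, prior or threshold.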

Additional observations from a re-analysis of the deposited data

How the results depend on the processing

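Of the 10 called Fox genes, Foxd1, Foxd3, Foxc2 and Foxf2 kept their call under all 12 refitted alternatives, with Foxd1 between 1.25 and 2.45. The authors' table, counted among the 12, repeats Feature Extraction's log ratio. Foxd3, Foxc2 and Foxf2 only just passed in places, with highest limma adjusted p-values of 0.0443, 0.0477 and 0.0461. Their lowest ratios, under the spike-in scaling, were 0.37, 0.36 and 0.38. Median centring called 2928 genes in all, 4 Fox genes toward oligodendrocytes, 1 toward astrocytes, 7 Fox probes, and 2 FoxO regulators, 7 FoxO targets, 0 FoxM1 targets (in limma, also 0 at an unadjusted p under 0.05), 4 cofactors and 3 regional factors. Spike-in scaling moved the median of all genes to -0.71 and called 19571 genes, 23 Fox genes toward astrocytes, 39 Fox probes, 29 FoxO regulators, 32 FoxM1 targets and 29 cofactors; the Fox genes that turned toward astrocytes there were Foxb2 (-0.51), Foxe3 (-0.69), Foxf1 (-0.68), Foxh1 (-0.54), Foxi2 (-0.59), Foxk1 (-0.70), Foxk2 (-0.58), Foxl1 (-0.60), Foxl2 (-0.70), Foxn1 (-0.68), Foxo3 (-0.62), Foxp3 (-0.68), Foxp4 (-0.70) and Foxq1 (-0.55). FoxM1 targets numbered 2 with Feature Extraction's log ratio or the authors' table and 9 with the mean of a gene's probes. Limma's treat against 0.5, a stricter test by construction and not run for the lists, called 3816 genes, 1608 toward oligodendrocytes and 2208 toward astrocytes. It called 8 Fox probes and 1 Fox gene toward astrocytes, and its count of Fox genes toward oligodendrocytes is not given here. Counting without a test the genes that differed 2-fold or more on each array gave 2 Fox genes toward oligodendrocytes and 1 toward astrocytes. The same count was not made over all genes, so whether these are few or many cannot be said. For the other changes the cause was not tested. Leaving out 1 array leaves no residual degree of freedom, so it gives single-array values and no counts. With 2 arrays on 1 slide, neither the slide nor the culture could be examined as a source of spread, and dim probes limit what can be said of the 12 dimmest Fox genes.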
